A study of Rattus norvegicus with 23 samples.

Results

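Matrix metalloproteinases (Mmp), the related Adamts proteases and their tissue inhibitors (Timp) were followed in microglia of neonatal rats as 10 genes given by name, Mmp2, Mmp3, Mmp12, Mmp14, Mmp19, Timp1, Timp2, Timp3, Adamts1 and Adamts4. All 10 were matched by symbol among the 20301 genes of the deposited table, and none was left out by a filter. RNA was sequenced from brain cells of 7-day-old Wistar rats of both sexes, isolated with magnetic beads against CD11b/c 24 h after the operation. The 6 Sham samples came from pups with a neck incision under isoflurane only, and the 5 LPS samples from pups that were given 0.1 mg/kg of Escherichia coli lipopolysaccharide (LPS) intraperitoneally 4 h before the same sham surgery. The 6 NaCl/HI samples came from pups injected with saline, and the 6 LPS/HI samples from pups that received the same LPS dose. In both of these groups the left common carotid artery was then ligated under isoflurane and hypoxia with 8% oxygen followed for 50 min, which together give hypoxia-ischemia (HI).

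Each Sham or LPS sample was the entire brain of 1 pup, whereas each HI sample pooled the ipsilateral hemispheres of 2 pups. HI therefore cannot be told apart from the tissue taken and from pooling in any comparison with Sham or LPS. No injection is described for the Sham pups. Values are log2 expression values from the rlog transformation, which draws weakly expressed genes toward their mean, after 3 surrogate variables had been removed. The depth of the libraries is unknown, and the library medians lay between 7.75 and 7.82. Because gene length is not accounted for, the levels of the 10 genes were compared between samples and not with each other. In such bulk samples, fewer cells of a type and less RNA per cell cannot be told apart.

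Matrix metalloproteinases are zinc enzymes that are made as inactive proenzymes and cut collagens, laminins, proteoglycans and many cell surface and secreted proteins. TIMPs bind the active site of these enzymes, and Timp3 in addition inhibits Adamts proteases and sheddases. In the injured brain this system is known for its role in opening the basement membrane of vessels and in the turnover of perineuronal matrix. Timp1 is induced by many inflammatory stimuli in glia, Mmp12 is a classical product of macrophages, and Mmp2, Timp2 and Timp3 are made constitutively in many tissues.

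The 3 genes that passed the test in at least 1 comparison were Timp1, Mmp3 and Mmp12, and their upstream sequences are shown for this reason. RefSeq promoters (assembly GRCr8, not the mRatBN7.2 build of the files) were matched by symbol for 7 of the 10 genes. Capitals mark 3 motifs searched on both strands in the 250 bases before each start, namely the AP-1 element TGANTCA, its variant TGAGTAA and the TATA box TATAAA. No overlap between motifs occurred in the stretches shown, which run 5′ to 3′ on the strand of the gene from base 150 to base 1 before the start. Mmp3 lies at chr8:12925131-12925280 on the plus strand, Mmp12 at chr8:12866502-12866651 on the plus strand and Timp1 at chrX:3771123-3771272 on the minus strand.
Mmp3: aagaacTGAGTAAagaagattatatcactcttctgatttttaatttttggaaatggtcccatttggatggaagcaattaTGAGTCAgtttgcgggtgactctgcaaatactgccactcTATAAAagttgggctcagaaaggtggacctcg
Mmp12: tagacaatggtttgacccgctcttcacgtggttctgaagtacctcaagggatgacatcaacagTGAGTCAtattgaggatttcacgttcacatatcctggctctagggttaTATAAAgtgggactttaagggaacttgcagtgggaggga
Timp1: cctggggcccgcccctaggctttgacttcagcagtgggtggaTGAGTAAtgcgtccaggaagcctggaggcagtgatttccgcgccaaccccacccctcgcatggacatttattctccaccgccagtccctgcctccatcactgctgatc

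The Mmp3 stretch holds TGAGTCA from 71 to 65 bases and TATAAA from 32 to 27 bases before the start, and TGAGTAA from 144 to 138. In Mmp12 the corresponding positions are 87 to 81 for TGAGTCA and 39 to 34 for TATAAA. Timp1 holds TGAGTAA from 108 to 102 bases before its start and no TATAAA. Of 33469 rat promoters, 6.34% hold the AP-1 element, 2.38% the variant and 12.9% the TATA box in the same window. Of the remaining members with a promoter, Adamts1 holds TATAAA, while Timp2, Timp3 and Adamts4 hold none of these letters. A match is a description of the letters and not evidence of binding. Mmp3 and Mmp12 belong to 1 gene cluster, in which the gene table places only Mmp1b between them, and Adamts1 lies next to Adamts5.

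Tests came from limma, with the 23 samples in a single model, and a gene was called at an adjusted p under 0.05 over all 20301 genes. In LPS against Sham, 1 of the 10 genes was called higher and 0 lower, with 10.2% of all genes called higher and 7.56% lower. LPS/HI against Sham had 2 higher and 0 lower, beside 5.30% and 3.48% of all genes. For LPS/HI against LPS the counts were 1 higher and 0 lower, beside 1.22% and 0.719%. LPS against NaCl/HI had 0 higher and 2 lower, beside 5.32% and 3.66%. Each of these counts concerns few genes, and the shares over the table are given to read them against. With the fold above 2 that the study also required, the only one of these 6 calls left was that of Mmp12 in LPS against NaCl/HI.

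No gene was called by limma in NaCl/HI against Sham, where 0.00985% of all genes were called higher and 0% lower, or in LPS/HI against NaCl/HI, where the shares were 0.153% and 0.0493%. An unadjusted p under 0.05 was found for 5 and 4 of the 10 genes in these comparisons, beside 14.8% and 10.6% of all genes. The exact Wilcoxon rank-sum test adjusted over all genes called 0 in both. It could call no gene there, because too few genes reached its smallest p of 0.00216 for 6 against 6 samples. The interaction, which is the LPS difference with HI minus the LPS difference without HI, also had 0 called genes with limma and 3 at an unadjusted p under 0.05, beside 15.1% of all genes. There, 0.365% of all genes were called higher and 0.719% lower. The samples of the compared groups did not overlap for 2 genes in LPS against Sham (13.9% of all genes), 2 in LPS/HI against Sham (6.37%), 2 in LPS/HI against LPS (4.17%) and 1 in LPS against NaCl/HI (7.31%). This was the case for 0 genes in NaCl/HI against Sham (1.01%) and in LPS/HI against NaCl/HI (1.33%). The comparisons share samples and are not independent of each other.

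**Figure D1:**
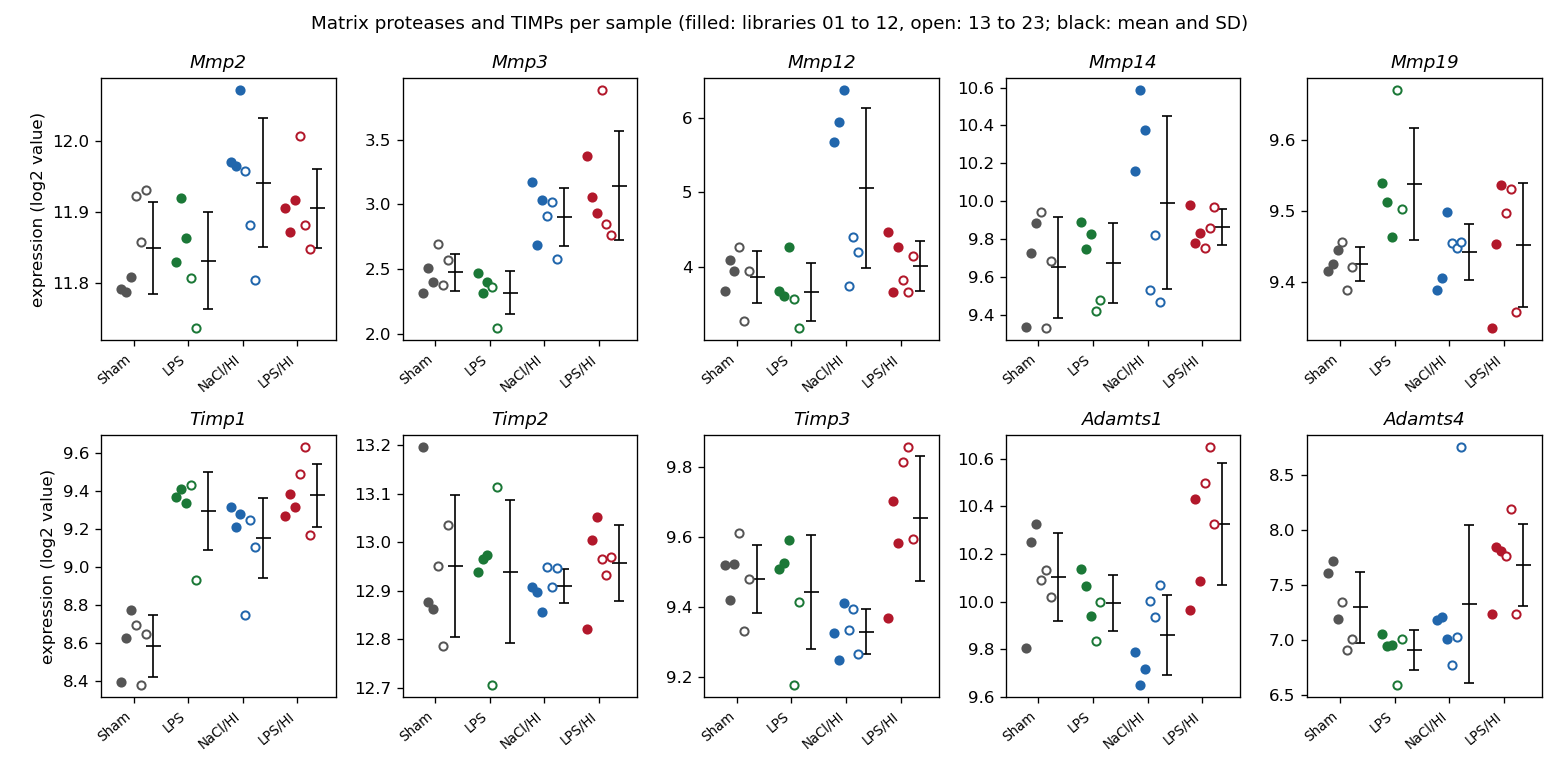
Expression (log2 value, vertical axes, with a separate scale in each panel) of the 10 genes in each of the 23 samples by group, with the group mean and SD in black. Filled points are libraries numbered 01 to 12 and open points 13 to 23; all Timp1 values of LPS, NaCl/HI and LPS/HI except 1 lie above the highest Sham value of 8.77, and the 3 filled NaCl/HI points of Mmp12 lie between 5.69 and 6.38.

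Timp1, the inducible inhibitor of most secreted metalloproteinases, rose in LPS and in LPS/HI against Sham. Its log2 values in Sham ranged from 8.38 over a median of 8.63 to 8.77. The 5 LPS samples had 9.37, 9.41, 9.34, 9.43 and 8.93. In NaCl/HI the lowest, median and highest values were 8.75, 9.23 and 9.31, and in LPS/HI 9.17, 9.35 and 9.63. All LPS and LPS/HI samples thus lay above every Sham sample, while NaCl/HI replicate 4, the sample at 8.75, fell just inside the Sham range.

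Timp1 rose by a log2 difference of 0.71 in LPS (standard error, SE, 0.11, limma adjusted p = 0.000129) or 1.64-fold, and in LPS/HI by 0.79 (SE 0.11, adjusted p = 0.000843) or 1.73-fold, each against Sham. In libraries 01 to 12 these differences were 0.77 and 0.73, and in libraries 13 to 23 they were 0.61 and 0.86. In NaCl/HI, Timp1 had a log2 difference of 0.57 from Sham (SE 0.11, limma adjusted p = 0.0658), with 6 of 6 samples above the Sham mean. This adjusted p was 0.0021 without NaCl/HI replicate 4 and 0.0265 without LPS replicate 5, and 0.05 after rounding, just past the threshold, without LPS replicate 4. It was 0.0152 with 19 degrees of freedom and 0.0424 after quantile normalization. The order of the means was LPS/HI, LPS, NaCl/HI and Sham, and no neighbours in it passed the test. LPS/HI differed from LPS by 0.08 (95% interval -0.15 to 0.31) and from NaCl/HI by 0.23 (95% interval 0.01 to 0.44, limma adjusted p = 0.452).

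The interaction for Timp1 was -0.48 (SE 0.15, limma adjusted p = 0.122), so the LPS difference of 0.71 without HI and that of 0.23 with HI were not told apart after adjustment. Without LPS replicate 5 the interaction was -0.58 (limma adjusted p = 0.0468), and without NaCl/HI replicate 4 it was -0.57 (limma adjusted p = 0.0327). In the gene table Timp1 overlaps Syn1, a synaptic vesicle gene. Overlaps given here are those of whole gene spans, introns included. Reads were quantified on transcripts, so only bases held by the transcripts of both genes could be confused. Whether there are such bases was not examined, and the library kit does not mark strand. Syn1 did not pass the test in any of the 6 pairs, with differences between -0.14 (LPS against Sham) and 0.05 (LPS/HI against LPS).

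Timp2, an inhibitor that also takes part in the activation of Mmp2 by Mmp14, showed the smallest group differences. Its values ran from 12.79 to 13.20 in Sham, 12.71 to 13.11 in LPS, 12.86 to 12.95 in NaCl/HI and 12.82 to 13.05 in LPS/HI. The ranges of all groups overlapped. Differences of the 6 pairs lay between -0.04 (NaCl/HI against Sham, 95% interval -0.18 to 0.09) and 0.05 (LPS/HI against NaCl/HI, 95% interval -0.09 to 0.18), and none passed the test. Timp2 overlaps Cep295nl in the gene table.

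Timp3, the inhibitor that is held in the extracellular matrix, was highest in LPS/HI and lowest in NaCl/HI. The lowest, median and highest values were 9.37, 9.65 and 9.86 in LPS/HI, 9.25, 9.33 and 9.41 in NaCl/HI, and 9.33, 9.50 and 9.61 in Sham. The 5 LPS samples had 9.51, 9.53, 9.59, 9.18 and 9.42. LPS/HI replicate 1, at 9.37, was the only LPS/HI sample that reached into the NaCl/HI range. The difference of 0.32 between LPS/HI and NaCl/HI (SE 0.08, limma adjusted p = 0.0817) did not pass, with 6 of 6 LPS/HI samples above the NaCl/HI mean. Without LPS/HI replicate 1 it was 0.38 (limma adjusted p = 0.0198), without LPS replicate 4 the adjusted p was 0.0493, and with 19 degrees of freedom it was 0.0273. Within libraries 01 to 12 the difference was 0.22 and within libraries 13 to 23 it was 0.43. Against Sham, LPS/HI differed by 0.17 (limma adjusted p = 0.153), which among the settings run passed only without LPS/HI replicate 1, at 0.23 (limma adjusted p = 0.0385). Timp3 overlaps Syn3 in the gene table. Against Sham, Syn3 was called lower in LPS/HI (log2 difference -0.30, limma adjusted p = 0.0182), where Timp3 differed by 0.17, and in LPS (-0.25, adjusted p = 0.0265), where Timp3 differed by -0.04. In NaCl/HI against Sham the differences were -0.14 for Syn3 and -0.15 for Timp3, and neither passed.

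Mmp3, stromelysin 1, cuts proteoglycans and laminin and activates other proenzymes. Its mean log2 value, not corrected for length, was 2.73, and 17.4% of genes lay below it, a range in which the rlog transformation shrinks differences. In Sham its values were 2.31, 2.45 and 2.70 (lowest, median, highest), and the 5 LPS samples had 2.47, 2.32, 2.40, 2.36 and 2.04. NaCl/HI had 2.58, 2.96 and 3.17, and LPS/HI 2.76, 3.00 and 3.88. Every LPS/HI sample was above every Sham and LPS sample, and every NaCl/HI sample was above every LPS sample.

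Mmp3 rose in LPS/HI against Sham by 0.67 (SE 0.15, limma adjusted p = 0.0101) or 1.59-fold and against LPS by 0.82 (SE 0.16, limma adjusted p = 0.00915) or 1.77-fold. It was lower in LPS than in NaCl/HI, with a log2 difference of -0.58 (SE 0.16, limma adjusted p = 0.0221). This last call was lost without NaCl/HI replicate 1 (limma adjusted p = 0.0534) or LPS replicate 5 (limma adjusted p = 0.064). In a fit of only LPS/HI and LPS the adjusted p of their difference was 0.0898. By the exact Wilcoxon test the adjusted p was 0.104 for LPS/HI against LPS and 0.0593 for LPS against NaCl/HI. In both, Mmp3 had the smallest p that this test can give for 6 against 5 samples, 0.00433. No gene of the table could therefore pass it in these comparisons. NaCl/HI differed from Sham by 0.42 (95% interval 0.12 to 0.73, limma adjusted p = 0.205), with 6 of 6 samples above the Sham mean, and LPS/HI from NaCl/HI by 0.24 (95% interval -0.07 to 0.55). The order of the means was LPS/HI, NaCl/HI, Sham and LPS, and no neighbours in it passed the test. Within libraries 01 to 12 and 13 to 23, the differences were 0.72 and 0.62 for LPS/HI against Sham, and 0.73 and 0.96 for LPS/HI against LPS. For LPS against NaCl/HI they were -0.57 and -0.63.

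Of 14 mural cell and fibroblast markers, which include collagen and smooth muscle genes, 6 were called higher in LPS/HI than in Sham (5.30% of all genes), 5 were higher than in LPS (1.22%) and 3 lower in LPS than in NaCl/HI (3.66%), the 3 comparisons in which Mmp3 was called. The mean log2 value of these markers per sample was between 9.28 and 9.52 in Sham, 9.27 and 9.52 in LPS, 9.38 and 9.68 in NaCl/HI and 9.53 and 9.75 in LPS/HI. None of the 14 markers had a mean log2 value under 2. Other lists had called markers in these comparisons too. In LPS/HI against Sham 3 of 8 monocyte markers were higher, and in LPS/HI against LPS 2 of 9 endothelial markers were higher. In LPS against NaCl/HI 3 of 10 microglia markers were lower and 2 higher (5.32% of all genes). The mural cell and fibroblast list was set beside Mmp3 after the values had been seen. The part of these lists in the Mmp3 differences was not tested.

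Mmp12, macrophage elastase, had the largest spread of the 10 genes, with log2 values from 3.17 to 6.38. Sham samples had 3.27, 3.94 and 4.27 (lowest, median, highest), the 5 LPS samples 3.67, 3.60, 4.27, 3.57 and 3.17, and LPS/HI 3.66, 3.98 and 4.47. The NaCl/HI samples split by library number. Replicates 1, 2 and 3, among libraries 01 to 12, had 5.69, 5.96 and 6.38, whereas replicates 4, 5 and 6, among libraries 13 to 23, had 3.74, 4.40 and 4.19. The first 3 lay above every sample of the remaining groups, and the last 3 lay within or close to the Sham range.

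The log2 difference of Mmp12 between LPS and NaCl/HI was -1.40 (SE 0.36, limma adjusted p = 0.019). It was -2.16 within libraries 01 to 12 and -0.74 within libraries 13 to 23. Without LPS replicate 5 the adjusted p was 0.0521, and in a fit of only these groups it was 0.124. By the exact Wilcoxon test, which could call no gene in this comparison, it was 0.123. NaCl/HI differed from Sham by 1.19 (SE 0.35, limma adjusted p = 0.162), which was 2.10 within libraries 01 to 12 and 0.28 within libraries 13 to 23, and among the settings run it passed only without NaCl/HI replicate 4, at 1.46 (limma adjusted p = 0.0244). LPS/HI differed from NaCl/HI by -1.05 (SE 0.35, limma adjusted p = 0.232), with -1.88 and -0.23 within the library numbers. Between Sham, LPS and LPS/HI, no pair of Mmp12 passed the test, and the 95% intervals of these differences reached from -0.97 to 1.11.

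The mean of the monocyte markers in NaCl/HI followed the same split, and it was not the only list to do so. The mean log2 value of 8 monocyte genes was 10.17 to 10.30 in NaCl/HI replicates 1 to 3 and 9.73 to 9.79 in replicates 4 to 6, while Sham samples had 9.47 to 9.86. The same NaCl/HI replicates were also apart, and higher in 1 to 3, for the neutrophil list (5.64 to 5.89 against 5.37 to 5.55) and the mural cell and fibroblast list (9.58 to 9.68 against 9.38 to 9.56). They were lower in replicates 1 to 3 for border-associated macrophages (10.82 to 11.12 against 11.19 to 11.30), neurons (6.54 to 6.76 against 6.78 to 6.90) and endothelium (11.06 to 11.16 against 11.17 to 11.21). In LPS/HI, the monocyte mean ran from 9.69 to 10.46 with Mmp12 at most at 4.47. In LPS against NaCl/HI, where Mmp12 was called lower, 2 of the 8 genes were called higher and 1 lower, beside 5.32% and 3.66% of all genes. The higher ones were Plac8 (1.26, limma adjusted p = 7.17e-06) and Itgal (0.27, adjusted p = 0.0142), and the lower one was Fn1 (-0.83, adjusted p = 0.0261). In NaCl/HI against Sham, 0 of the 8 genes were called with limma, and 2 were at an unadjusted p under 0.05, beside 14.8% of all genes. None of the 8 had a mean log2 value under 2, and the part of these lists in the Mmp12 values was not tested. What the library numbers stand for is not described.

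Mmp14, the membrane-type enzyme that activates pro-Mmp2 at the cell surface, showed a split of the same kind. NaCl/HI replicates 1 to 3 had log2 values of 10.16, 10.59 and 10.38, and replicates 4 to 6 had 9.53, 9.82 and 9.47. Sham samples had 9.33, 9.71 and 9.94 (lowest, median, highest), the 5 LPS samples 9.89, 9.75, 9.83, 9.42 and 9.48, and LPS/HI 9.75, 9.84 and 9.98. NaCl/HI differed from Sham by 0.34 (SE 0.16, limma adjusted p = 0.328), which was 0.73 within libraries 01 to 12 and -0.05 within libraries 13 to 23. No pair of groups passed for Mmp14.

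Mmp2, gelatinase A, varied little, from 11.74 to 12.07 over all samples. The group means were 11.85 ± 0.06 (SD, n = 6) in Sham, 11.83 ± 0.07 (SD, n = 5) in LPS, 11.94 ± 0.09 (SD, n = 6) in NaCl/HI and 11.91 ± 0.06 (SD, n = 6) in LPS/HI. The ranges of all groups overlapped. The difference farthest from 0 was -0.11 for LPS against NaCl/HI (95% interval -0.21 to -0.01, limma adjusted p = 0.165).

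Mmp19, a widely expressed enzyme of basement membrane turnover, lay between 9.39 and 9.46 in Sham, and the 5 LPS samples had 9.54, 9.51, 9.46, 9.67 and 9.50. All LPS samples were above all Sham samples, if narrowly. The difference of 0.11 (SE 0.05, limma adjusted p = 0.0901) did not pass with limma, whereas it did by the exact Wilcoxon rank-sum test (adjusted p = 0.0312 over all genes) and in limma without the lowering of the degrees of freedom (adjusted p = 0.0476). NaCl/HI samples ran from 9.39 to 9.50 and LPS/HI samples from 9.33 to 9.54, both across the Sham range.

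**Figure D2:**
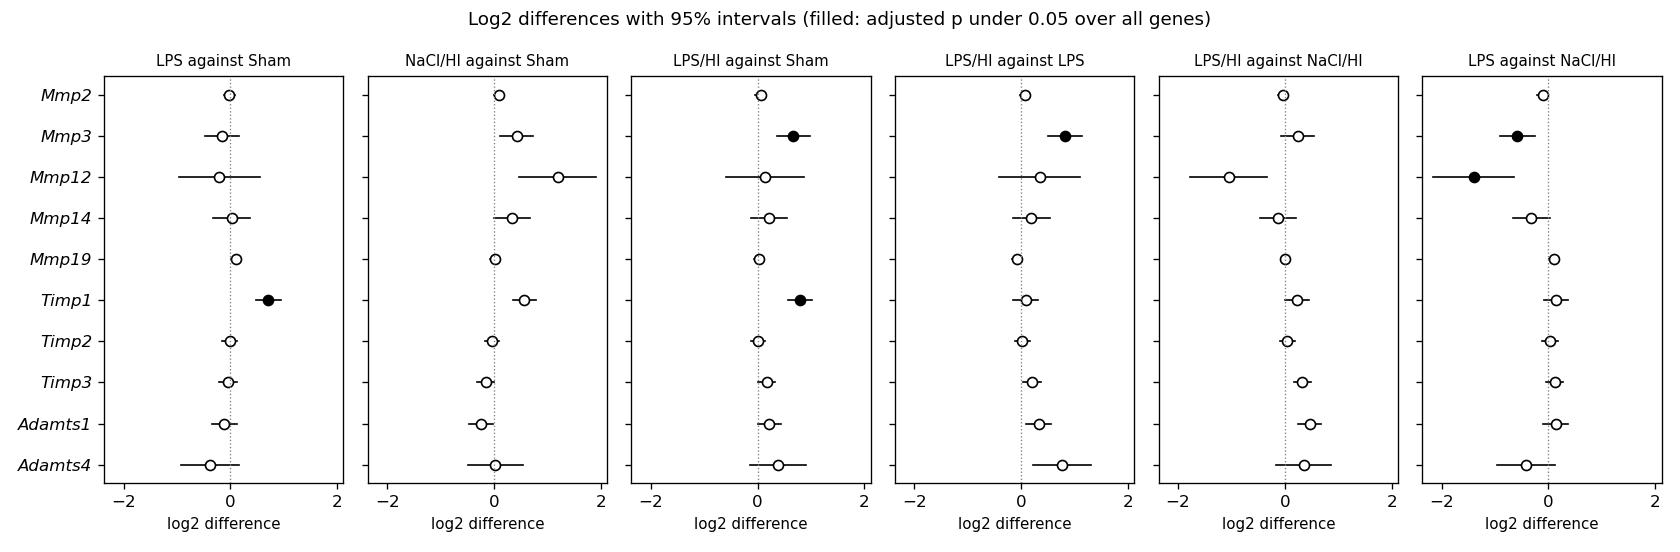
Log2 difference (horizontal axes) of each of the 10 genes in the 6 pairs of groups, as the first group minus the second, with 95% intervals from limma. The 6 filled points passed an adjusted p under 0.05 over all genes, and they belong to Timp1, Mmp3 and Mmp12.

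Adamts1 and Adamts4 cut the proteoglycans aggrecan, brevican and versican. Adamts1 was highest in LPS/HI, with values of 9.97, 10.38 and 10.65 (lowest, median, highest), and lowest in NaCl/HI, with 9.65, 9.86 and 10.07. Sham samples had 9.80, 10.11 and 10.33, and LPS replicates 1 to 4 had 10.14, 10.06, 9.94 and 9.83, with replicate 5 between the second and the third of them. LPS/HI replicate 1, at 9.97, was the only LPS/HI sample within the NaCl/HI range, and the ranges of Sham and LPS overlapped with those of both HI groups.

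The difference of Adamts1 between LPS/HI and NaCl/HI was 0.46 (SE 0.11, limma adjusted p = 0.0712), 0.44 within libraries 01 to 12 and 0.49 within libraries 13 to 23. Without LPS/HI replicate 1 it was 0.54 (limma adjusted p = 0.0218), and with 19 degrees of freedom the adjusted p was 0.025. That setting also gave the interaction of Adamts1 an adjusted p of 0.0305. Against LPS, LPS/HI differed by 0.33 (SE 0.11, limma adjusted p = 0.131), which was 0.11 and 0.57 within the library numbers. The interaction was 0.57 (SE 0.15, limma adjusted p = 0.0727), composed of an LPS difference of -0.11 without HI and 0.46 with HI. It passed without LPS/HI replicate 1 (0.65, limma adjusted p = 0.0462), LPS/HI replicate 3 (0.62, adjusted p = 0.0483) or NaCl/HI replicate 4 (0.60, adjusted p = 0.0483).

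The group means of the endothelial, mural cell and fibroblast, astrocyte, neutrophil and monocyte lists were also highest in LPS/HI. The mean log2 value of 9 measured endothelial genes was between 11.18 and 11.51 in LPS/HI, 11.06 and 11.21 in NaCl/HI, 10.98 and 11.21 in LPS and 11.15 and 11.37 in Sham. None of these 9 genes was called in LPS/HI against NaCl/HI with limma, and 6 were at an unadjusted p under 0.05, beside 10.6% of all genes. In the interaction 2 were called higher, beside 0.365% of all genes. None had a mean log2 value under 2. Of 8 astrocyte genes, 8 had a positive difference in LPS/HI against NaCl/HI and 0 were called with limma. An unadjusted p under 0.05 was found for 2 of them, beside 10.6% of all genes. The part of these lists in the Adamts1 values was not tested.

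Adamts4 had log2 values of 6.91, 7.27 and 7.71 in Sham (lowest, median, highest), and the 5 LPS samples had 7.05, 6.94, 6.95, 6.59 and 7.01. NaCl/HI replicates 1 to 5 lay between 6.77 and 7.21, with replicate 6 apart at 8.75. LPS/HI samples had 7.24, 7.79 and 8.19, so that all of them were above all LPS samples. The difference of 0.77 between LPS/HI and LPS (SE 0.26, limma adjusted p = 0.131) did not pass. Without NaCl/HI replicate 6, which takes part only in the shared estimate of the spread, its adjusted p was 0.0238, and the interaction then was 1.03 (limma adjusted p = 0.0498) in place of 0.74 (adjusted p = 0.337). NaCl/HI against Sham had a difference of 0.03, and of -0.26 without this sample. Within libraries 01 to 12 and 13 to 23, the difference between LPS/HI and LPS was 0.65 and 0.93.

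NaCl/HI replicate 6 was also the sample with the highest mean log2 value of 8 oligodendrocyte lineage markers. It exceeded the next sample, Sham replicate 1 at 9.29, by 0.7, and the remaining NaCl/HI samples had 8.27 to 9.04. Adamts4 was 7.61 in Sham replicate 1. The group means of this list were 8.731 in Sham, 8.445 in LPS, 8.89 in NaCl/HI and 8.723 in LPS/HI. In the same order those of Adamts4 were 7.30, 6.91, 7.33 and 7.68. None of the 8 markers was called with limma in any of the 6 pairs, and none had a mean log2 value under 2. Their part in the Adamts4 values was not tested.

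**Figure D3:**
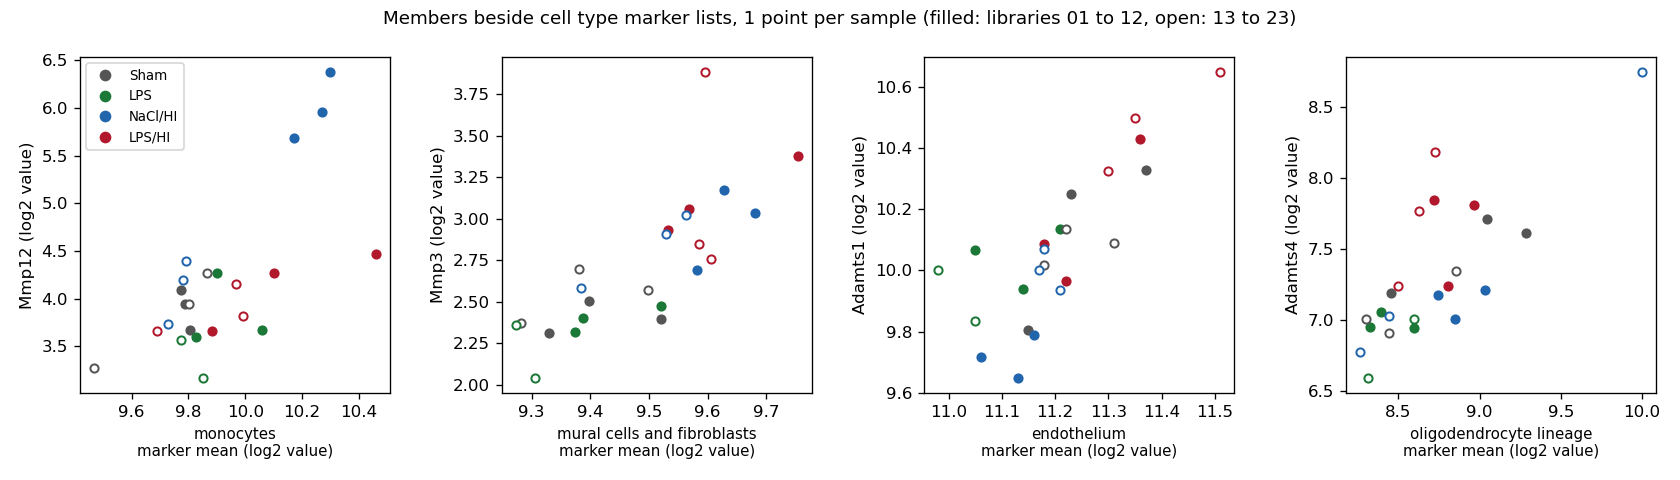
Log2 value of Mmp12, Mmp3, Adamts1 and Adamts4 (vertical axes) against the mean log2 value of 4 cell type marker lists (horizontal axes), 1 point per sample in the color of its group, filled for libraries 01 to 12 and open for 13 to 23. The lists were paired with the genes after their values had been seen; the 3 highest Mmp12 points, 5.69 to 6.38, have monocyte means of 10.17 to 10.30, and the highest Adamts4 point, 8.75, also has the highest oligodendrocyte lineage mean.

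**Figure D4:**
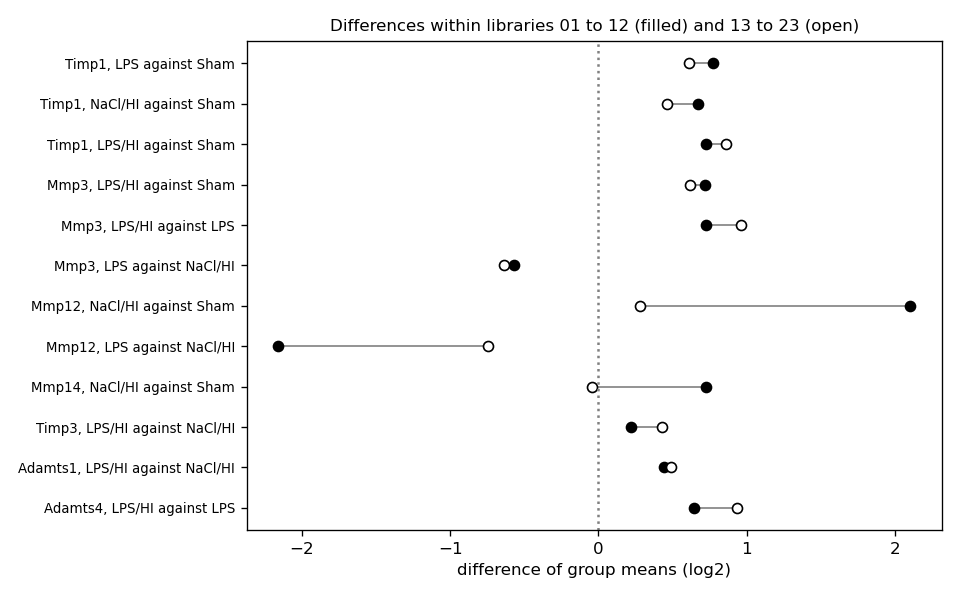
Differences of group means (log2, horizontal axis) computed within libraries 01 to 12 (filled) and within libraries 13 to 23 (open) for 12 combinations of gene and comparison, without a test. Both values have 1 sign for Timp1 and Mmp3, and they lie far apart for Mmp12 in NaCl/HI against Sham, at 2.10 and 0.28.

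CD11b/c-selected cells were checked against their markers. The mean log2 value of 10 microglia genes was between 14.12 and 14.50 in all samples, on a scale that is not corrected for length. The means of 8 astrocyte genes were 10.25 to 11.07, of 8 neuron genes 6.49 to 6.96, of 10 neutrophil genes 5.32 to 5.99 and of 8 genes of border-associated macrophages 10.73 to 11.56. Among all listed markers that were measured, only Elane, a neutrophil granule protease, had a mean log2 value under 2, and Cldn5 was not analysed here. In LPS against Sham, where Timp1 rose and 10.2% of all genes were called higher and 7.56% lower, the markers called higher were 2 of 10 microglia, 2 of 8 astrocyte, 2 of 8 monocyte, 1 of 9 endothelial, 1 of 10 neutrophil and 1 of 8 border-associated macrophage genes. Those called lower were 4 microglia, 4 endothelial, 4 of 8 neuron, 3 border-associated macrophage and 2 neutrophil markers. In LPS/HI against Sham, where Timp1 also rose and the shares of all genes were 5.30% and 3.48%, 6 of 14 mural cell and fibroblast, 3 monocyte, 2 astrocyte, 1 endothelial and 1 neutrophil marker were higher, and 3 neuron, 1 microglia and 1 border-associated macrophage marker were lower. No oligodendrocyte lineage marker was called by limma in either comparison, and no mural cell or fibroblast marker in LPS against Sham. The part of these markers in the Timp1 differences was not tested.

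By Pearson's r over the 23 samples, which share the groups and the removal of surrogate variables, genes most like Timp1 included Adap1 (r = 0.935) and Ccdc22 (0.934). Those most like Mmp3 were RGD1307182 (r = 0.894), Alox12b (0.867) and Postn (0.850), whose r was 0.574 after the group means were subtracted. For Mmp12 they were Serpinb8 (r = 0.953), RGD1559482 (0.946) and LOC100909671 (0.943), and for Mmp14 Anpep (r = 0.946), Inf2 (0.920) and Iqgap1 (0.914). Adamts1 was closest to Ecm1 (r = 0.930), Uaca (0.875) and Lsr (0.866). Adamts4 was closest to Cldn11 (r = 0.874), a tight junction protein of myelin, and to Ehd3 (0.871) and Apbb1 (0.868). Timp3 was closest to Pawr (r = 0.906), Pla1a (0.885) and Plet1 (0.883). After the group means were subtracted, the r of the first gene named was 0.885 for Timp1, 0.817 for Mmp3, 0.932 for Mmp12, 0.944 for Mmp14, 0.908 for Adamts1, 0.920 for Adamts4 and 0.853 for Timp3. The closest genes were Arhgap22 for Mmp2 (r = 0.834, and 0.798 after subtraction), Haspin for Mmp19 (0.844 and 0.833) and Cables1 for Timp2 (0.869 and 0.917).

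The other 34 genes of the Mmp, Adamts and Timp families in the table, Reck included, were called as follows. In LPS against Sham 2 were higher and 7 lower, beside 10.2% and 7.56% of all genes, with a median log2 difference of -0.03 beside -0.01 over all genes. The higher genes were Mmp23 (0.24, limma adjusted p = 0.0407) and Adamts13 (0.20, adjusted p = 0.034), the protease that cuts von Willebrand factor. The largest falls were those of Mmp28 (log2 difference -0.48, limma adjusted p = 0.018), Adamts8 (-0.46, adjusted p = 0.000392) and Adamts9 (-0.33, adjusted p = 0.00438). In LPS against NaCl/HI 1 was higher, again Adamts13 (0.23, limma adjusted p = 0.0298), and 5 were lower (5.32% and 3.66% of all genes), led by Adamts2 (-0.47, adjusted p = 0.00966), a procollagen processing enzyme, Mmp28 (-0.46, adjusted p = 0.0382) and Adamts15 (-0.41, adjusted p = 0.00204).

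In LPS/HI against LPS 4 of these 34 genes were higher and 0 lower (1.22% and 0.719% of all genes), among them Adamts2 (0.49, limma adjusted p = 0.0273), Adamts15 (0.44, adjusted p = 0.00883) and Adamts9 (0.32, adjusted p = 0.0288). Adamts9 was also the 1 gene called higher in the comparison of LPS/HI against NaCl/HI (0.35, limma adjusted p = 0.0445) and in the interaction (0.68, adjusted p = 0.0101). The shares of all genes called higher there were 0.153% and 0.365%. In LPS/HI against Sham 2 were higher, one of them Mmp8, neutrophil collagenase (1.04, limma adjusted p = 0.0476), and 0 were lower (5.30% and 3.48% of all genes). Of 10 neutrophil markers 1 was called higher in that comparison, with means per sample of 5.48 to 5.66 in Sham and 5.44 to 5.99 in LPS/HI, and their part in the Mmp8 difference was not tested. In NaCl/HI against Sham 0 were called with limma, and 4 were at an unadjusted p under 0.05, beside 14.8% of all genes. The exact Wilcoxon test adjusted over all genes, which could call no gene there, called 0. Mmp1 and Mmp13, which neighbour Mmp3 and Mmp12 in the gene table, had mean log2 values of -0.932 and -0.872, which 1.39% and 1.64% of genes lay below, and passed no test.

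A list of 24 regulators, receptors and substrates of matrix proteases, in which Dcn is also a fibroblast marker and Fn1 also a monocyte marker of the lists above, and Reck also counts among the 34 family genes, had 3 genes called higher and 5 lower in LPS than in Sham (10.2% and 7.56% of all genes). Reck is in the lower genes of both lists. The higher ones were A2m, the general protease inhibitor alpha-2-macroglobulin (0.31, limma adjusted p = 0.0382), the proteoglycan Bcan (0.28, adjusted p = 0.00747) and Bsg, an inducer of metalloproteinases (0.20, adjusted p = 0.0196). The largest falls were Lrp1, the endocytic receptor for protease and inhibitor complexes (log2 difference -0.40, limma adjusted p = 0.00157), Sparc (-0.26, adjusted p = 0.0151) and Pcsk5 (-0.22, adjusted p = 0.039). LPS/HI against Sham had 5 higher and 1 lower (5.30% and 3.48% of all genes), with Cd44 (0.84, limma adjusted p = 0.0442), A2m (0.79, adjusted p = 0.000755) and Dcn (0.39, adjusted p = 0.0112) at the top and Spock3 (-0.19, adjusted p = 0.0447) as the fall.

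In LPS/HI against LPS, Dcn (0.53, limma adjusted p = 0.00883) and A2m (0.49, adjusted p = 0.0158) were the 2 genes of this list called higher (1.22% of all genes), and A2m (0.59, adjusted p = 0.0185) was the 1 called higher against NaCl/HI (0.153% of all genes). In LPS against NaCl/HI, Bsg was higher (0.22, limma adjusted p = 0.0189), and Fn1 (-0.83, adjusted p = 0.0261), Lrp1 (-0.51, adjusted p = 0.000414) and Itgb1 (-0.16, adjusted p = 0.0422) were lower, beside 5.32% and 3.66% of all genes. In NaCl/HI against Sham and in the interaction 0 of the 24 were called with limma. An unadjusted p under 0.05 was found for 5 and 6 of them, beside 14.8% and 15.1% of all genes. The exact Wilcoxon test called 0 in NaCl/HI against Sham, where it could call no gene. Of 10 Adam sheddases, Adam15 was called higher in LPS (0.19, limma adjusted p = 0.037) and in LPS/HI (0.21, adjusted p = 0.0311) than in Sham, beside 10.2% and 5.30% of all genes, and Adam19 lower in LPS than in NaCl/HI (-0.26, adjusted p = 0.0469), beside 3.66%.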

How the data were processed

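RNA-sequencing values of 23 samples were taken from the deposited table, and groups were assigned by the sample titles. The authors quantified the reads with kallisto 0.48.0 on mRatBN7.2, passed them to DESeq2 for the rlog transformation and regressed out 3 surrogate variables with sva and limma. The deposited values are therefore on a log2 scale and ran from -1.35 to 23.4. Whether the groups were protected in this step is not given in the sources used here. Regressing out variables estimated from the same samples can narrow the spread within groups, so all p values, exact ones too, may be smaller than they should be. Replicates are biological by their titles.

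The 6 pairs of groups and the interaction were tested with limma 3.58.1 in R 4.3.3, in 1 model of all samples with a trend of the variance on the mean. To account for the 3 variables, 16 in place of 19 residual degrees of freedom were used and the residual variance was rescaled. Adjusted p values (Benjamini-Hochberg) covered the 20301 genes of each comparison, without a filter on low values, and called means under 0.05. The model was also run on simulated data in which known variables were removed with the groups kept. The removal of variables estimated from the samples was not simulated, so these runs cannot check the p values in that respect. Promoters and neighbouring genes were read with Python 3.11.15 from RefSeq tables of GRCr8, and figures were drawn with matplotlib 3.10.9.

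The members and lists were chosen with earlier results of these data known. All 10 genes were named in every comparison. From the family and regulator lists, at most 3 called genes per direction were named by size. For each of the 10 genes, the 3 genes with the highest Pearson r were ranked. Some results that this rule names are not reported here. Adam15, Adam19, Syn1, Syn3, Mmp1, Mmp13, Plac8, Itgal and, in LPS/HI against LPS, Adamts9 were singled out after their values had been seen. Alternative settings changed the residual degrees of freedom, left out the trend or fitted only the groups compared. Others were a fold threshold of 2 as in the study, leaving out the lowest 25% of genes, quantile normalization, blocks of replicate number or library numbers, the exact Wilcoxon test and leaving out each library. Differences within library numbers, of the called values and of some that were not called, were added after the data had been seen.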

Additional observations from a re-analysis of the deposited data

Results flagged for a closer look

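In 4 of 40 combinations of gene and group, 1 sample stood apart from the rest of its group by Dixon's criterion, which chance alone meets in about 1 in 20 groups. Timp1 had a value of 8.93 in LPS replicate 5, below the other LPS samples by 0.808 of the range of the group. In NaCl/HI replicate 4, Timp1 was 8.75, below the rest by 0.628 of the range. Adamts4 was 6.59 in LPS replicate 4, below the other LPS samples by 0.763 of the range. In NaCl/HI replicate 6, Adamts4 was 8.75, above the other samples by 0.779 of the range.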

How the results depend on the processing

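Without counts, the precision that depth gives is unknown. Leaving out libraries aside, of 603 values of a gene in a comparison under other settings, 580 kept direction and side of the threshold, 10 lost and 7 gained the call, and 6 reversed, 0 of them called. Only quantile normalization and the blocks change the log2 difference, so a reversal was possible only there. The fold threshold can only remove calls. The count of kept values is therefore not a measure of robustness. The number of the 10 genes called in LPS against Sham was 1, and 2 with 19 residual degrees of freedom or the exact Wilcoxon test and 0 with the fold threshold of 2. For NaCl/HI against Sham it was 0, and 1 with 19 degrees of freedom or quantile normalization. LPS/HI against Sham had 2, and 0 with the fold threshold and 1 without the lowest 25% of genes, which removes Mmp3. LPS/HI against LPS had 1, and 0 with the fold threshold, without the lowest 25% of genes, with the exact Wilcoxon test or with only the groups compared. LPS/HI against NaCl/HI had 0, and 2 with 19 degrees of freedom. LPS against NaCl/HI had 2, and 1 with the fold threshold, without the lowest 25% or with only the groups compared, and 0 with the exact Wilcoxon test. The interaction had 0, and 1 with 19 degrees of freedom. Apart from the removal of Mmp3, the cause was not tested.

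With replicate number as a block the counts were 1, 0, 2, 1, 0 and 2 in the 6 pairs and 0 in the interaction, as without it. Deviations of same-numbered samples correlated between -0.475 and 0.47 over 33 pairs, with 9 over 0.1, so the numbers were not taken to pair samples. Reversed values, none of them called, were Mmp14 in LPS against Sham (-0.0175 with quantile normalization, -0.0031 with the replicate block, -0.0058 with a block of library numbers), and with quantile normalization Mmp19 (-0.0086) and Timp2 (-9e-04) in LPS/HI against Sham and Mmp19 in LPS/HI against NaCl/HI (-0.0128).

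With each library left out in turn, the number called ranged from 0 to 2 in NaCl/HI against Sham, LPS/HI against NaCl/HI, LPS against NaCl/HI and the interaction, from 1 to 2 in LPS/HI against LPS and from 2 to 3 in LPS/HI against Sham. Uncalled differences that changed sign in LPS against Sham were those of Mmp2 (-0.0407 to 0.0053), Mmp14 (-0.0422 to 0.0859), Timp2 (-0.0554 to 0.0468) and Timp3 (-0.0739 to 0.0302). In NaCl/HI against Sham they were Timp2 (-0.0734 to 0.0085) and Adamts4 (-0.2563 to 0.1391), in LPS/HI against Sham Timp2 (-0.0265 to 0.0553), and in LPS/HI against LPS Timp1 (-0.0095 to 0.1229) and Timp2 (-0.0404 to 0.0618). In LPS/HI against NaCl/HI it was Mmp19 (-0.0070 to 0.0332), in LPS against NaCl/HI Timp2 (-0.0150 to 0.0872) and in the interaction Mmp2 (-0.0455 to 0.0078).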
